A study of Mus musculus with 4 samples.

Results

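Slc16a11, Igfbp7, Npy, Pros1, Scin, Klk8, Clec4e and Rpl39l are 8 of the 32285 genes counted in single bone marrow cells of transplanted mice. They were chosen because an earlier look at these same data placed them among the genes that set apart Fcer1a- and Cpa3-positive cells of the Mll3/4SI library from such cells of the control library. Their higher level in those cells is therefore how they were found and is given here as a description. What that choice did not fix is how far the levels reach into other cell types, which of the genes share cells, and what the Mll3/4 deleted and control B220lo libraries hold.

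The samples were CD45.2+ bone marrow cells taken 10 weeks after transplantation, CD45.2 being the form of the CD45 antigen that distinguishes transplanted cells from those of the host. There was 1 library for each of 4 groups, namely the control Kit+, the Mll3/4 deleted Kit+, the Mll3/4SI Kit+ (called SI below, an abbreviation the labels do not expand) and the control B220lo cells. Stem and progenitor cells carry the receptor Kit, and cells of the B lineage carry B220. MLL3 and MLL4 are the histone methyltransferases encoded by Kmt2c and Kmt2d, and the series title asks what they do in blood stem cells and in the choice between myeloid and B-cell fates. The labels name neither the strain, the Cre driver or deletion method, the host, nor the number of mice in a library.

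After filtering, 11051 control Kit+, 13747 deleted, 11501 SI and 15380 control B220lo cells remained, with a median of 11594, 6507, 11969 and 3246 UMIs a cell. A UMI (unique molecular identifier) marks 1 captured transcript. With 1 library in a group no difference was tested, and every interval below covers counting error only. The deleted library also stood apart in sex-linked transcripts, with 148 CPM (a gene's UMIs relative to all UMIs, scaled to 1000000) summed over Ddx3y, Eif2s3y, Kdm5d and Uty and 0.350 CPM of Xist, against 0.0143 to 0.570 CPM and 423 to 541 CPM in the other libraries, so sex and group cannot be told apart there. Any 2 libraries shared 214 to 345 cell barcodes, 1.68% to 2.34% of the first library's barcodes.

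Mast cells and basophils are granule-filled cells that carry the high-affinity IgE receptor, whose alpha chain is encoded by Fcer1a and whose beta chain is encoded by Ms4a2. Their progenitors in the marrow switch on carboxypeptidase A3 (Cpa3) and histamine synthesis (Hdc) before most granule proteases appear, and the proteases then differ, with tryptases and chymases in mast cells and Mcpt8 and Prss34 in basophils. The 8 genes are no single pathway. Igfbp7, Npy and Pros1 encode secreted proteins, namely a binding protein of the insulin-like growth factor family, the peptide neuropeptide Y, and protein S, an anticoagulant cofactor that is also a ligand of the TYRO3, AXL and MERTK receptors. Klk8 encodes a secreted serine protease of the kallikrein family. Slc16a11 encodes a membrane carrier of the monocarboxylate transporter family, and Clec4e encodes Mincle, a lectin receptor that signals through the Fc receptor gamma chain (Fcer1g), Syk and Card9. Scin encodes scinderin, a calcium-dependent protein of the gelsolin family that severs actin filaments, and Rpl39l encodes a paralog of the ribosomal protein Rpl39 best known from testis.

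Cells were grouped by raw UMIs into gates that may overlap. The mast gate needed at least 3 UMIs each of Fcer1a and Cpa3, and the basophil gate at least 3 of Mcpt8 and Prss34 together. The Hlf gate needed at least 1 UMI of Hlf, a transcription factor of stem and early progenitor cells. The Elane gate needed at least 10 UMIs of Elane (neutrophil elastase, a granulocyte gene), and the Car1 gate at least 10 of Car1 (carbonic anhydrase, an erythroid gene). The mast gate held 96 control cells (0.869% of kept cells, 95% exact interval 0.704 to 1.06), 3 deleted cells (0.0218%, 0.00450 to 0.0638) and 1867 SI cells (16.2%, 15.6 to 16.9). The other gates held 160, 13 and 228 cells (basophil), 2493, 186 and 3238 cells (Hlf), 4223, 554 and 3345 cells (Elane) and 2288, 62 and 869 cells (Car1) of the control, deleted and SI libraries. Within the SI mast gate 522 cells also passed the Hlf gate, 28.0% of it, against 12 of the 96 control cells. Of the basophil gate 64.4% of control and 59.2% of SI cells also passed the Elane gate. There 10 granulocyte and monocyte genes summed to 25904 CPM in control and 28862 CPM in SI cells. The 7 basophil genes measured summed to 1241 and 1008 CPM, so the basophil gate is likewise named only by its rule.

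The mast gate was checked against a list of 20 mast-cell genes, of which 15 had a UMI in control and 18 in SI cells. That count rises with the UMIs summed, which were 1137684 in control and 25871524 in SI cells. Above 10 CPM were 13 of the genes in control and 12 in SI cells, and the list summed to 2324 and 1790 CPM. Ms4a2 stood at 376 CPM in control and 295 CPM in SI cells, Gata2 at 373 and 204 CPM, Kit at 266 and 305 CPM, and Hdc at 258 and 281 CPM. The genes of granule proteases listed next stood lower than these in both libraries, apart from Gzmb in control. Mcpt1 and Tpsab1 had no UMI in either library, Tpsb2 stood at 0 and 0.348 CPM, and Mcpt4 at 0.879 and 0.155 CPM. The chymase gene Cma1 stood at 14.9 and 10.4 CPM and Gzmb (granzyme B) at 294 and 61.3 CPM. The gate therefore holds cells with the receptor and early mast-cell genes and with tryptase genes, Mcpt1 and Mcpt4 at or near 0, and it is called the mast gate below only as its rule.

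The control and SI mast gates also differed in markers of other cells. Prss34 was at 771 CPM in control and 2.13 CPM in SI cells, Mcpt8 at 254 and 32.7 CPM, and the eosinophil granule gene Prg2 at 364 and 10.05 CPM. A minority of cells held these UMIs, with Prss34 found in 15.6%, Mcpt8 in 34.4% and Prg2 in 3.125% of control mast-gate cells. In the 62 control cells that passed the mast gate alone, Prss34 stood at 1.5 CPM, Mcpt8 at 27.0 CPM and Prg2 at 0, and in the 1241 such SI cells at 0.247, 2.84 and 0.0617 CPM. Leaving out the basophil gate lowers Prss34 and Mcpt8 by rule. The 7 basophil genes measured still summed to 1389 CPM in these control cells and 353 CPM in these SI cells. A list of 10 granulocyte and monocyte genes, all of them detected in both, summed to 9049 CPM in control and 6080 CPM in SI cells. A list of 6 interferon-response genes summed to 36.9 and 220 CPM, and 8 B-lineage genes to 43.1 and 38.9 CPM. A list of 8 erythroid genes summed to 245 CPM in control and 117 CPM in SI cells, and to 261 and 65.2 CPM in cells passing the mast gate alone. The part of these markers in the differences of the 8 genes was not tested.

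In the GENCODE M21 annotation of GRCm38 the genes are protein-coding and lie on 6 chromosomes. Slc16a11 is at chr11:70212752-70216417, Npy at chr6:49822710-49829507, Pros1 at chr16:62854307-62929346, Klk8 at chr7:43797577-43803826 and Rpl39l at chr16:10170226-10174911, all on the plus strand. Igfbp7 is at chr5:77349240-77408041, Scin at chr12:40059769-40134228 and Clec4e at chr6:123281789-123289870, on the minus strand. Igfbp7 overlaps Polr2b and Klk8 overlaps 2310002F09Rik, each on the opposite strand. How the counting used strand is not given in the sources used here.

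RefSeq start-site windows (build GRCm38.p6) were found for all 8 genes, and the 250 bases upstream of the start are shown for the 3 genes with the largest SI over control differences in the mast gate. Capitals mark the matches to the motifs searched, and the windows lie at chr11:70213660-70213909 (plus strand), chr6:49822460-49822709 (plus strand) and chr16:10169978-10170227 (plus strand).

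Slc16a11: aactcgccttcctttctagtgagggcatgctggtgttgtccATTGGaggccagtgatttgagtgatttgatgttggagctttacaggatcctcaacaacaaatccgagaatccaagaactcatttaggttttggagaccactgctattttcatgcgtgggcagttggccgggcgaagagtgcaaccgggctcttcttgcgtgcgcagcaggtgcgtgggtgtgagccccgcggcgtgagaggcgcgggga

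Npy: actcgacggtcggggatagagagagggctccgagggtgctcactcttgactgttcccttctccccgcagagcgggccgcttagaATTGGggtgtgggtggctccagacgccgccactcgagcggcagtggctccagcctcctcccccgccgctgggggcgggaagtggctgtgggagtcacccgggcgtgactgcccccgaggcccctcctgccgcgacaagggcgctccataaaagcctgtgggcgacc

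Rpl39l: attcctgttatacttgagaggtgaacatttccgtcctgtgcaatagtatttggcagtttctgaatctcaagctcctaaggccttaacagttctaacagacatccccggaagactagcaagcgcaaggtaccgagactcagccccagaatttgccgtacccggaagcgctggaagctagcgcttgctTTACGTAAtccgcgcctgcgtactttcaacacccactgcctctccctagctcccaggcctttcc

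The search covered both strands. For GATA factors it used AGATAA or its variant TGATAA, for E-boxes CACGTG or the variant CATGTG, and for RUNX factors TGTGGT. For PAR bZIP factors, the family of HLF, it used TTACGTAA, for AP-1 the letters TGANTCA, for CRE sites TGACGTCA, and for ETS factors ACTTCCGG. The TATA box was searched as TATAAA, the CCAAT box by its name and the GC box, which is not capitalised, as GGGCGG. The CCAAT letters lie at position -209 of the Slc16a11 window and -166 of the Npy window, counted from the start site, and 34.5% of 27025 RefSeq windows of this length hold them. The Rpl39l window holds TTACGTAA at position -64, which 27 of the 27025 windows hold (0.0999%). That motif was added to the search after the Rpl39l letters had been read, so its rarity supports nothing. Of the other genes, Pros1 had TGATAA at position -169, a motif held by 8.16% of windows, and Clec4e had TGTGGT at -114, CCAAT at -97 and TATAAA at -29. The shares of windows with TGTGGT and TATAAA are 14.2% and 13.0%. Igfbp7, Scin and Klk8 had only the GC box, which 32.9% of windows hold, and only its matches at -12 and -8 of Pros1 overlapped each other. No motif was common to the 8 windows. They held 3 (Clec4e) to 26 (Igfbp7) CpG pairs, where the median window held 6. The Slc16a11 start site lies inside the gene as annotated by GENCODE M21, which begins at base 70212752 of chromosome 11.

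In the mast gate the 8 genes summed to 222 CPM in control cells (95% Poisson interval 196 to 252), 116 CPM in the 3 deleted cells (31.6 to 297) and 805 CPM in SI cells (794 to 816). The deleted value rests on 4 UMIs, all in 1 cell. SI over control was 3.62-fold (3.20 to 4.11), a log2 ratio of 1.85 with 1 CPM added. All 8 genes passed a mean of 5 CPM, and 7 of the 8 were at least 2-fold higher in SI, where 3.14% of 10053 genes were. The choice of the genes rests on this contrast, and Slc16a11, Npy, Pros1 and Rpl39l passed the filter only through their SI level, so nothing is read from that count. Setting the gates at equal depth, on 3000 UMIs drawn from each cell, left 19 control and 794 SI cells and lowered the summed log2 ratio to 0.97. The plot of levels by gate and library gives each gene in the 3 Kit+ libraries.

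**Figure D1:**
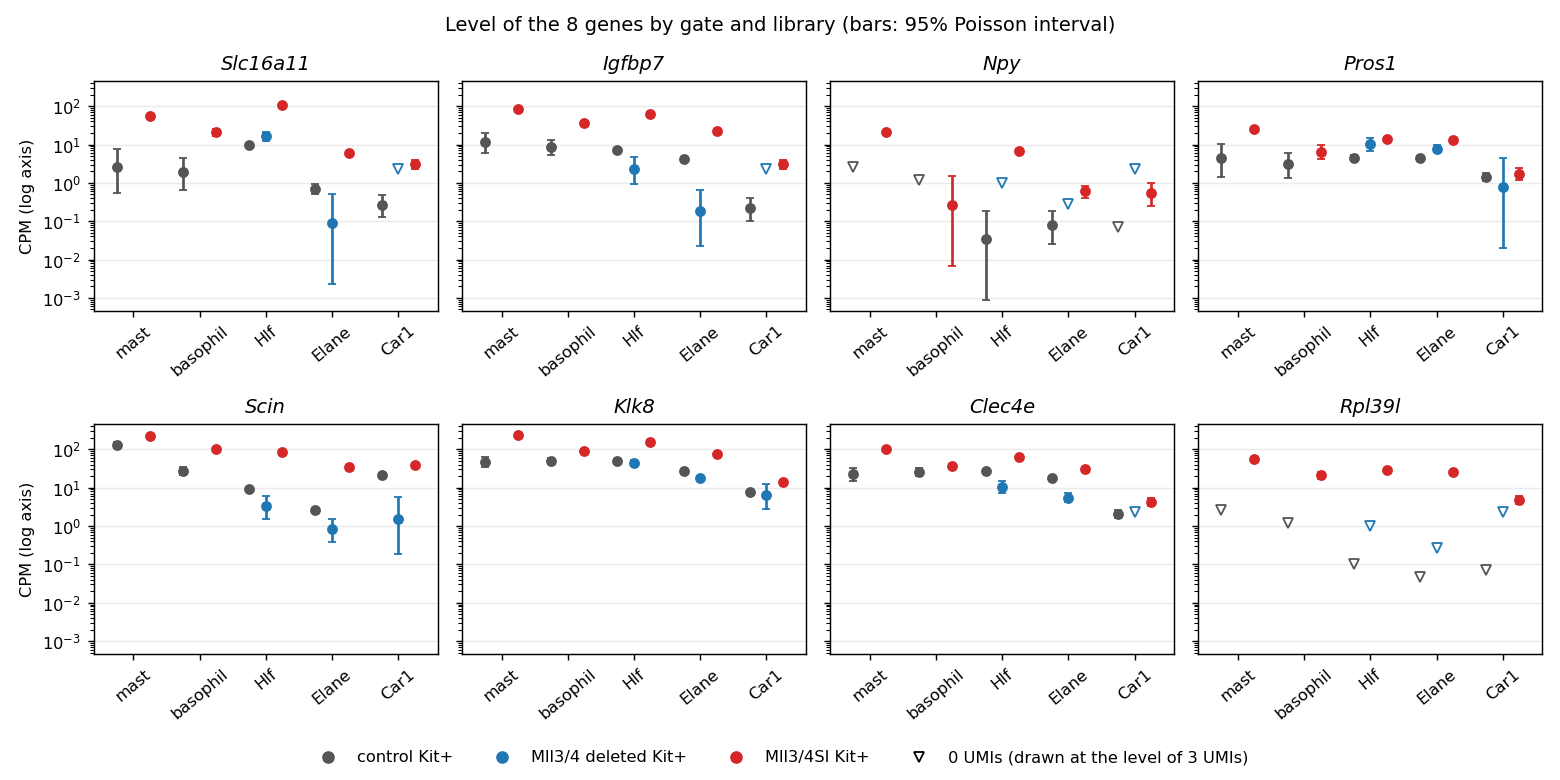
Level of each of the 8 genes in CPM (log axis) in the mast, basophil, Hlf, Elane and Car1 gates of the control Kit+ (grey), Mll3/4 deleted Kit+ (blue) and Mll3/4SI Kit+ (red) libraries, with 95% Poisson intervals. Gates with under 20 cells are not drawn, open triangles stand for 0 UMIs and are placed at the level of 3 UMIs, and the SI point is above the control point or triangle for every gene except Npy in the basophil gate, where SI had 1 UMI.

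Among the secreted proteins, Igfbp7 stood at 11.4 CPM (6.08 to 19.5) in control, 0 in deleted and 86.2 CPM (82.7 to 89.8) in SI mast-gate cells, 7.54-fold higher in SI (4.40 to 14.2). With gates set on 3000 UMIs a cell Igfbp7 stood at 31.7 CPM in 19 control and 79.1 CPM in 794 SI cells, a log2 ratio of 1.29. Npy had 0 UMIs in the 96 control and the 3 deleted cells and 544 UMIs in SI cells, 21.0 CPM (19.3 to 22.9). Set against 3 counts over the control group, Npy was at least 7.97-fold higher in SI. Pros1 stood at 4.39 CPM (1.43 to 10.3) in control, 0 in deleted and 24.9 CPM (23.0 to 26.9) in SI cells, 5.66-fold higher (2.41 to 17.5), and its control level rests on 5 UMIs. The secreted protease gene Klk8 stood at 47.5 CPM (35.7 to 61.9) in control and 236 CPM (230 to 242) in SI cells, 4.97-fold higher (3.81 to 6.63). Klk8 was the only one of the 8 genes with a UMI in the 3 deleted cells, where it had 4, all in 1 cell.

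Of the membrane proteins, Slc16a11 had 3 UMIs in control and 1476 in SI mast-gate cells. These gave 2.64 CPM (0.544 to 7.71) and 57.1 CPM (54.2 to 60.0), a ratio of 21.6 with an interval of 7.39 to 105. Clec4e stood at 22.9 CPM (14.9 to 33.5) in control and 102 CPM (98.2 to 106) in SI cells, 4.47-fold higher (3.04 to 6.85). The intervals of the control and SI levels did not overlap for these genes. Both were chosen on this contrast, and the share of all genes without overlap was not computed, so nothing is read from it.

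Scin, inside the cell, differed least. It stood at 134 CPM (113 to 157) in control and 221 CPM (215 to 227) in SI mast-gate cells, 1.65-fold higher (1.41 to 1.95). This direction turned when gates were set on 3000 UMIs a cell, with 323 CPM of Scin in 19 control and 264 CPM in 794 SI cells. The mean over cells of each cell's own CPM gave a Scin log2 ratio of 0.23 in place of 0.72.

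Rpl39l had 0 UMIs in control mast-gate cells and 1476 in SI, 57.1 CPM (54.2 to 60.0), at least 21.6-fold higher against 3 counts. No Rpl39l UMI was found in any deposited barcode of the control Kit+ or deleted libraries, while the SI library had 4766 and the control B220lo library 112. Over kept cells Rpl39l was at 29.1 CPM in SI, at least 1353-fold higher than control. The labels name neither strain nor host, so for a gene with no UMI in a whole library a difference of strain or host and the group cannot be told apart. The paralog Rpl39 stood at 2064 CPM in control and 2080 CPM in SI mast-gate cells. Near-identical copies can share reads, so the count of Rpl39l alone is uncertain to that degree.

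The share of cells with a UMI was compared at 3000 UMIs a cell. In the SI mast gate it ran from 5.11% for Npy (10.3% without thinning) to 50.9% for Klk8 (90.6%). Scin was found in 41.0% (77.6%), Clec4e in 27.2% (65.5%), Igfbp7 in 16.4% (37.5%), Slc16a11 in 14.3% (26.5%), Rpl39l in 12.7% (29.9%) and Pros1 in 7.26% (26.0%) of SI mast-gate cells. In the control mast gate Npy and Rpl39l were found in 0 of 96 cells, which allows a share of up to 3.125% with a UMI. The other 6 genes were found in 1.04% (Pros1) to 26.0% (Scin) of control cells. Free RNA in droplets gives UMIs in cells that do not express a gene, and the Car1 gate, of the erythroid lineage, is set beside the mast gate here. It is no clean background, since 16 of the 20 mast-cell genes had a UMI in the SI Car1 gate, 7 of them above 10 CPM, and 17 of its 869 cells also passed the mast gate. In the SI Car1 gate, with a median of 18354 UMIs against 12367 in the mast gate, Npy was found in 0.116%, Rpl39l in 1.16% and Igfbp7 in 0.812% of cells. Scin was found in 14.2% of SI and 7.44% of control Car1-gate cells.

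The 8 genes also had UMIs in other gates of the SI library. In the Hlf gate 7 of them passed a mean of 5 CPM and all 7 were at least 2-fold higher in SI (1.14% of 10203 genes were). In the Elane gate 5 of 6 were (0.932% of 9760 genes), in the basophil gate 4 of 6 (1.09% of 9879) and in the Car1 gate 0 of 2 (0.646% of 9293). None was at least 2-fold lower in the Hlf (0.804% of all genes tested were), Elane (0.379%), basophil (0.769%) or Car1 gate (0.301%). Each gate comes from the same pair of libraries as the mast gate, so these counts are no independent sign. The filter is on the mean of both libraries, and genes under 5 CPM in control passed it only through their SI level and so had to be higher. These were Pros1 and Rpl39l in the Hlf gate, Igfbp7, Pros1, Scin and Rpl39l in the Elane gate, and Slc16a11 and Rpl39l in the basophil gate. Nothing is therefore read from the counts, and the levels of each gene follow. Of the SI Hlf gate 16.1% of cells also passed the mast gate, against 0.481% of the control Hlf gate. In cells passing the Hlf gate alone the log2 ratios of the 8 genes ran from 0.76 to 4.82, and in the whole Hlf gate from 1.13 to 4.92. Other markers also differed between the libraries in these gates. In the Hlf gate the erythroid list summed to 584 CPM in control and 169 CPM in SI cells and the megakaryocyte list to 318 and 148 CPM. The interferon-response list summed to 56.2 and 193 CPM in the Hlf gate, 21.99 and 91.5 CPM in the Elane gate and 46.9 and 302 CPM in the Car1 gate. In the basophil gate the interferon-response list summed to 30.2 and 137 CPM and the erythroid list to 179 and 71.9 CPM. The part of these markers was not tested. In cells outside all 5 gates, the log2 ratios of the 8 genes ran from 1.25 to 4.86.

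Slc16a11 followed the Hlf gate more than the mast gate. In control cells it stood at 9.90 CPM in the Hlf gate, 0.704 CPM in the Elane gate and 0.265 CPM in the Car1 gate. In SI cells Slc16a11 reached 111 CPM in the Hlf gate, 6.10 CPM in the Elane gate and 3.04 CPM in the Car1 gate. The Hlf gate was thus 1.94-fold above the mast gate (1.83 to 2.06) for Slc16a11 in SI. In deleted cells of the Hlf gate it stood at 16.4 CPM. Among SI mast-gate cells thinned to 3000 UMIs, Slc16a11 was 3.60-fold higher (2.90 to 4.45) with an Hlf UMI than without, 207 against 57.6 CPM. Without thinning the ratio was 4.75 (4.26 to 5.30), 131 against 27.5 CPM.

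The SI over control ratio of Scin ran from 1.65 to 13.2 over the gates. The control level was 9.08 CPM in the Hlf gate, 2.61 CPM in the Elane gate, 27.8 CPM in the basophil gate and 21.0 CPM in the Car1 gate. The SI level of Scin was 83.9, 34.5, 99.5 and 39.2 CPM in the same order. SI over control for Scin was 9.24-fold (8.16 to 10.5) in the Hlf gate, 13.2-fold (11.3 to 15.6) in the Elane gate, 3.58-fold (2.77 to 4.68) in the basophil gate and 1.87-fold (1.68 to 2.07) in the Car1 gate, against 1.65-fold in the mast gate. The difference between gates was not tested.

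Klk8 and Clec4e were found in every gate of the control library. Klk8 in control cells stood at 50.4 CPM in the Hlf gate, 27.8 CPM in the Elane gate and 7.73 CPM in the Car1 gate, and in SI cells at 155, 76.4 and 13.7 CPM. Clec4e in control cells stood at 27.8, 18.3 and 2.07 CPM, and in SI cells at 62.1, 30.7 and 4.30 CPM. In the basophil gate Clec4e differed by 1.37-fold (1.01 to 1.87), the smallest ratio among the genes with at least 10 UMIs there in both libraries. Pros1 was flat across the control Hlf, Elane and mast gates at 4.39 to 4.51 CPM, and stood at 14.0, 13.2 and 24.9 CPM in the same SI gates.

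Igfbp7 in control cells stood at 6.996 CPM in the Hlf gate and 0.217 CPM in the Car1 gate, and in SI cells at 61.9 and 3.04 CPM. Npy was rare in the other Kit+ libraries, with 12 UMIs in all 11051 control and 2 in all 13747 deleted cells, against 1243 in SI. Within SI, Npy stood at 21.0 CPM in the mast gate, 6.76 CPM in the Hlf gate, 0.600 CPM in the Elane gate and 0.268 CPM, 1 UMI, in the basophil gate. Of the 8 genes Npy had the lowest SI level in every gate.

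The SI level in cells passing only the Hlf, only the Elane or only the Car1 gate was then set against the whole mast gate. The mast gate was not made exclusive. Its 1867 cells include 522 that also passed the Hlf gate, where Slc16a11 was higher than in the rest. Fcer1a, a gate gene, stood at 8.29%, 0.928% and 0.410% of its mast-gate level, and Ms4a2, which the gate did not use, stood at 7.75%, 2.96% and 0.800%. Cpa3, the other gate gene, stood at 24.6%, 15.1% and 2.07%. The rule of the mast gate itself lowers Fcer1a and Cpa3 outside it. Summed over the list of 20 mast-cell genes, the level was 1003 CPM in the whole SI Hlf gate and 1012 CPM in the whole Elane gate and 409 CPM in the whole Car1 gate, against 1790 CPM in the mast gate. Rpl39l stood at 47.7%, 47.4% and 5.56%, Pros1 55.0%, 57.8% and 5.15%, and Klk8 68.7%, 30.1% and 3.71%. Slc16a11 stood at 258%, 4.88% and 2.13%. In cells of the Elane gate alone the 8 genes ran from 2.23% (Npy) to 57.8% (Pros1) of their mast-gate level, and Gzmb stood at 0.724%. In the 51 SI cells passing the basophil gate alone the 8 genes ran from 0% (Npy) to 71.9% (Scin), while Cpa3 stood at 43.2% and Gzmb at 404%. The plot of levels outside the mast gate shows these shares.

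**Figure D2:**
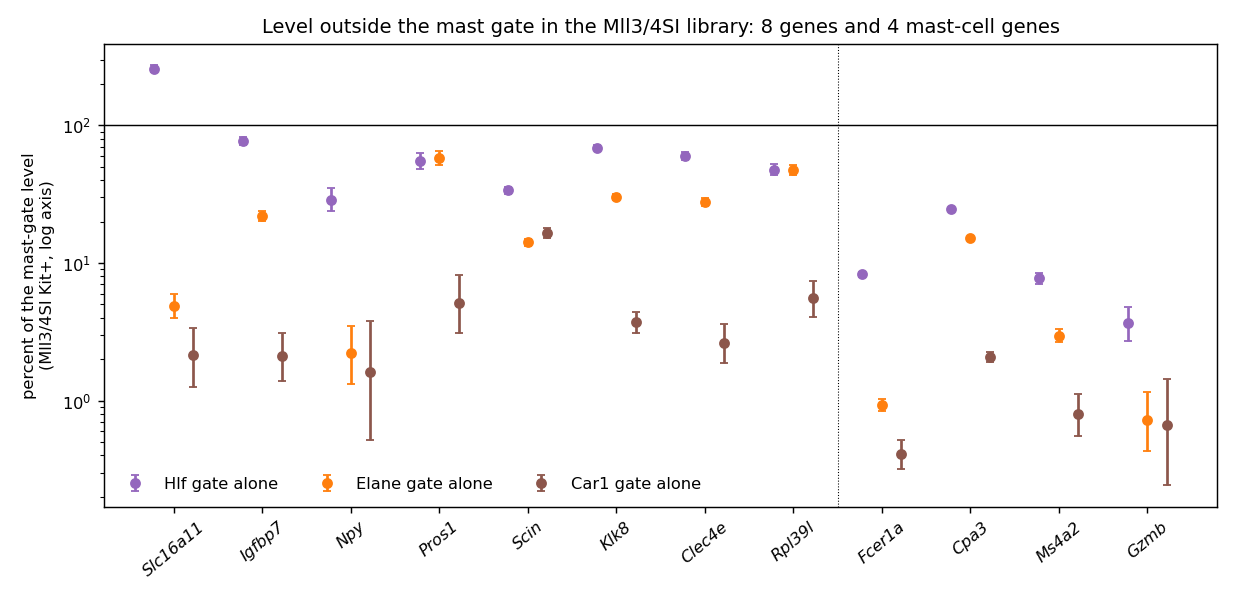
SI library: level of the 8 genes and of 4 mast-cell genes in cells passing only the Hlf (purple), only the Elane (orange) or only the Car1 gate (brown). Levels are a percent of the whole mast gate (log axis) with 95% exact intervals, and that gate keeps cells of other gates. The line marks 100%. Only Slc16a11 in the Hlf gate lies above the line, and the 4 mast-cell genes at the right lie at or below 24.6%. Of these, Fcer1a and Cpa3 define the gate, so its rule lowers them outside it. The basophil gate alone, not drawn, had Gzmb at 404%.

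Cells holding several of the genes were counted at 3000 UMIs a cell. SI mast-gate cells had a mean of 1.75 of the 8 genes and a median of 2, with 12.7% of 1859 cells at 0 (11.2 to 14.3) and 119 cells, 6.40% (5.33 to 7.61), at 4 or more. Control mast-gate cells had a mean of 0.531, with 52.1% of 96 cells at 0 and none at 4 or more. SI Hlf-gate cells had a mean of 1.18, Elane-gate cells 0.520 and Car1-gate cells 0.230, against 0.324, 0.162 and 0.122 in control. Without thinning, 1 SI mast-gate cell had a UMI of all 8 genes.

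**Figure D3:**
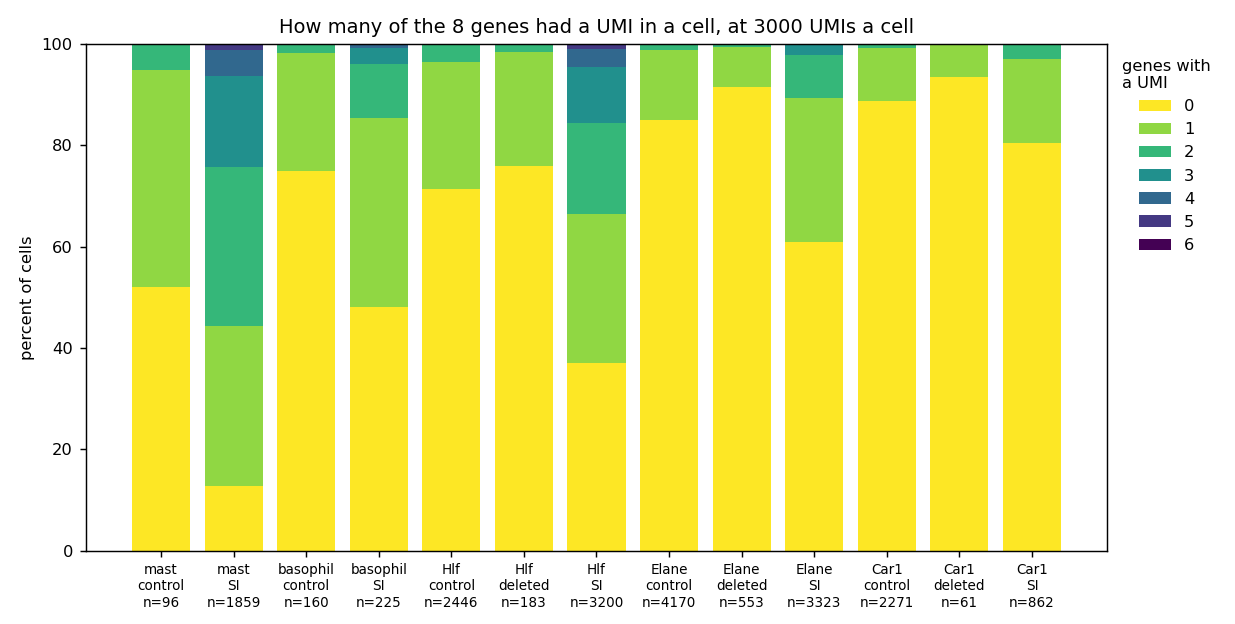
Share of cells (percent) by how many of the 8 genes had a UMI (colour, 0 to 6), at 3000 UMIs a cell, for each gate and Kit+ library with at least 20 cells. In the SI mast gate 12.7% of cells had none, against 52.1% in the control mast gate.

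Correlations between the genes from cell to cell were computed in the SI gates. Over 1859 cells at 3000 UMIs, the 28 pairs of genes had correlations of log2 counts from -0.067 to 0.070, with a median of 0.003. In the SI Hlf gate the pairs ran from -0.005 to 0.170, with a median of 0.071. Without thinning, at unequal depth, they ran from -0.121 to 0.168 (median 0.017) in the mast gate and from 0.036 to 0.286 (median 0.135) in the Hlf gate. Counts are sparse and the cells share 1 library, so these values describe and do not test.

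The SI mast gate was split by UMIs of marker genes, all at 3000 UMIs a cell, with the 5 genes used for splitting picked from the marker lists after the data were seen. In the 724 cells with an Ms4a2 UMI, Npy stood at 9.67 CPM against 39.1 CPM in the 1135 cells without (ratio 0.248, 0.148 to 0.394). Slc16a11 was likewise lower with Ms4a2 (0.465, 0.366 to 0.587), as was Igfbp7 (0.531, 0.429 to 0.654), whereas Scin was higher (1.60, 1.43 to 1.79). With a UMI of Cd34, a surface antigen of progenitors, Igfbp7 was 1.92-fold higher (1.58 to 2.35), Slc16a11 1.75-fold higher (1.42 to 2.16) and Scin lower (0.719, 0.642 to 0.804). Klk8, Clec4e, Pros1 and Rpl39l had intervals that included 1 in both of these splits.

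In the 50 cells with a UMI of Gzmb (granzyme B, a granule protease), Scin stood at 993 CPM against 206 CPM in the 1809 without, 4.82-fold higher (4.03 to 5.72). Igfbp7 had 1 UMI in those 50 cells and Npy 0. Gzmb itself stood at 294 CPM in control and 61.3 CPM in SI mast-gate cells. The part of the Gzmb-positive cells in the Scin difference between the libraries was not tested.

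**Figure D4:**
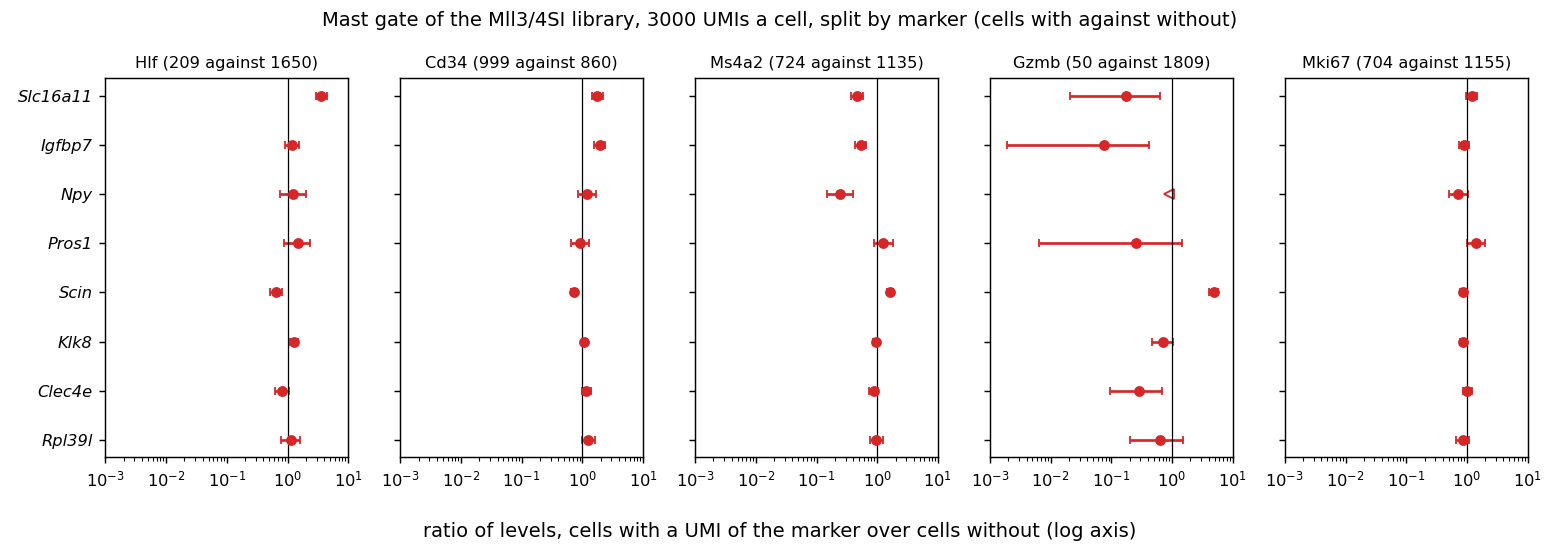
SI mast gate at 3000 UMIs a cell: ratio of the level in cells with a UMI of Hlf, Cd34, Ms4a2, Gzmb or Mki67 to the level in cells without (log axis, 95% exact intervals), with the number of cells on each side in the panel titles. The open triangle is the upper bound of a gene with 0 UMIs (Npy with Gzmb), the vertical line marks 1, and Scin lies on the opposite side from Slc16a11 and Igfbp7 for Cd34, Ms4a2 and Gzmb.

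In the deleted library only the Hlf, Elane and Car1 gates had enough cells for a ratio, and it used the same control cells as the SI ratios. Pros1 was higher in the deleted Hlf gate, 10.2 CPM against 4.51 CPM (2.26-fold, 1.48 to 3.36), and in the Elane gate, 7.84 against 4.50 CPM (1.74-fold, 1.35 to 2.23). Igfbp7 was lower in both, at 2.30 against 6.996 CPM (0.328) and 0.182 CPM, 2 UMIs, against 4.30 CPM (0.0423, 0.00510 to 0.154). Clec4e was lower in both, at 0.378 and 0.303 of control. Markers of other cells moved with these ratios. The 8 B-lineage genes summed to 952 CPM in deleted and 43.7 CPM in control cells of the Hlf gate and to 888 and 55.4 CPM in the Elane gate. The 8 erythroid genes summed to 97.1 CPM in deleted and 584 CPM in control cells of the Hlf gate. In the Car1 gate the B-lineage genes summed to 477 CPM in deleted and 8.60 CPM in control cells. Their part in the ratios was not tested. Scin was lower in the Elane gate (0.314, 0.141 to 0.612) and the Car1 gate (0.0749, 0.00906 to 0.271), the latter with 2 UMIs in deleted cells. In the Hlf gate its ratio was 0.361 (0.171 to 0.675) from summed UMIs, while the mean over cells gave 12.4 CPM in deleted and 10.1 CPM in control cells. Of 5 genes past a mean of 5 CPM in the Hlf gate, 1 was at least 2-fold higher in deleted (1.69% of 10247 genes) and 2 were lower (1.88%). In the Elane gate 0 of 3 were higher (1.46% of 9778) and 1 lower (1.26%), and in the Car1 gate 0 of 2 were higher (1.37% of 9298) and 1 lower (1.69%). Nothing is read from these counts, since Pros1 passed in the Hlf and Elane gates only through its deleted level and Scin in the Hlf and Car1 gates only through its control level.

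Most deleted cells carried Cd79a, a B-cell receptor gene, so B-lineage cells with at least 3 Cd79a UMIs were also described, a group chosen after the data were seen. It held 12591 deleted, 10839 control B220lo, 47 control Kit+ and 28 SI cells. The 8 genes summed to 124.5 CPM (122 to 127), 13.5 CPM (12.5 to 14.5), 41.2 CPM (21.95 to 70.5) and 265 CPM (204 to 338) in the same order. In the 2 small groups 1 cell held 46.2% of 13 UMIs (control Kit+) and 40.6% of 64 UMIs (SI). Granulocyte and monocyte genes summed to 12252 and 5905 CPM in these 2 groups. Klk8 stood at 109 CPM in deleted and 3.95 CPM in B220lo cells, 27.7-fold higher (24.1 to 31.8), with 28.5 CPM (13.1 to 54.2) in the 47 control Kit+ cells, and Pros1 at 13.5 and 1.21 CPM, 11.2-fold higher (8.73 to 14.6), with 0 UMIs in the control Kit+ cells. Scin was lower in the deleted cells, at 0.429 against 4.90 CPM, as was Clec4e, at 0.194 against 1.15 CPM. The deleted and B220lo libraries differ in sort, depth and sex-linked transcripts as well as in group. Other markers also differed between their Cd79a cells. Macrophage and dendritic genes summed to 11.2 CPM in deleted and 2604 CPM in B220lo cells, and erythroid genes to 170 and 699 CPM. Interferon-response genes summed to 141 and 42.0 CPM, and stem and progenitor genes to 364 and 72.1 CPM. The macrophage and dendritic list has 6 genes, Cd74 among them, and 2 of the 6 exceeded 10 CPM in the B220lo cells. In the 47 control Kit+ cells Cd74 was the only gene of that list with a UMI, at 3340 CPM. The sum of that list is therefore not read as macrophages or dendritic cells. The part of these markers was not tested.

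Relatives and partners of the 8 genes were listed by family and pathway. Of 57 measured genes in the lists, 23 passed a mean of 5 CPM, 1 was at least 2-fold higher in SI (3.14% of all genes were) and 3 were lower (4.38%), with a median log2 ratio of -0.16 against 0.020 over all genes. The 1 higher was Vill, a relative of Scin, at 20.2 CPM in control and 44.1 CPM in SI. The 3 lower were Igf1r, the receptor of insulin-like growth factor, at 217 and 58.5 CPM, Gsn (gelsolin) at 22.9 and 9.90 CPM, and Card9 at 65.9 and 26.6 CPM. Fcer1g and Syk, which act below Mincle, stood at 317 and 284 CPM and at 92.3 and 97.0 CPM. Clec4d, the neighbouring lectin gene, stood at 17.6 and 27.4 CPM. None of the Npy receptors, protein S partners or other kallikreins passed the filter.

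Likeness was measured as the Pearson correlation of log2(CPM + 1) over the 13 groups of gate and Kit+ library with at least 20 cells, which share libraries and some cells, among 9438 genes. Rpl39l was most like Serpina3i (0.99), Cryab (0.98) and Itgb6 (0.94). Serpina3i, a serine protease inhibitor gene, stood at 180 CPM in SI and 0 in control mast-gate cells. Npy was most like Chl1 (0.98), Lyz1 (0.96) and Cadm3 (0.95), which were all at 0 in control mast-gate cells. Slc16a11 was most like Nsmce1 (0.95), and Igfbp7 like Il18rap (0.95). Klk8 was most like Ptpre (0.98), Clec4e like Dtnbp1 (0.98), Scin like St8sia6 (0.95) and Pros1 like Zfp938 (0.94). The 28 pairs among the 8 genes themselves had a median correlation of 0.73, from 0.36 to 0.96. The groups include the mast gates on which the genes were chosen, which favours positive values. Correlations over all gene pairs were not computed, so nothing is read from these.

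The control B220lo library, outside the comparison of the Kit+ libraries, also held a few mast-gate cells, and the summed level of the 8 genes in them was nearer to SI than to control Kit+ cells. The 22 cells had 926 CPM of the 8 genes together, 4.17-fold (3.52 to 4.94) above the control Kit+ and 1.15-fold (1.03 to 1.29) above the SI mast gate. Rpl39l had 18 UMIs there (53.3 CPM) and Npy 15 (44.4 CPM), both genes at 0 UMIs in control Kit+ mast-gate cells. Serpina3i stood at 115 CPM. Of the 22 cells 6 also passed the basophil gate. Of the 22 barcodes 1 was shared with the control Kit+ library and 1 with the SI library. B-lineage markers summed to 1154 CPM in these cells, against 43.1 CPM in control Kit+ and 38.9 CPM in SI mast-gate cells. Basophil genes summed to 2738 CPM, against 2172 CPM in control Kit+ and 353 CPM in SI cells, and macrophage and dendritic genes to 450 CPM, against 41.3 and 20.3 CPM. In cells passing the mast gate alone, basophil genes summed to 373 CPM in 10 B220lo cells, 1389 CPM in control Kit+ and 353 CPM in SI cells. Of the 6 macrophage and dendritic genes, 3 had a UMI in the 22 B220lo cells, Cd74 among them, and C1qa, Adgre1 and Vcam1 had none. The part of these markers was not tested.

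**Figure D5:**
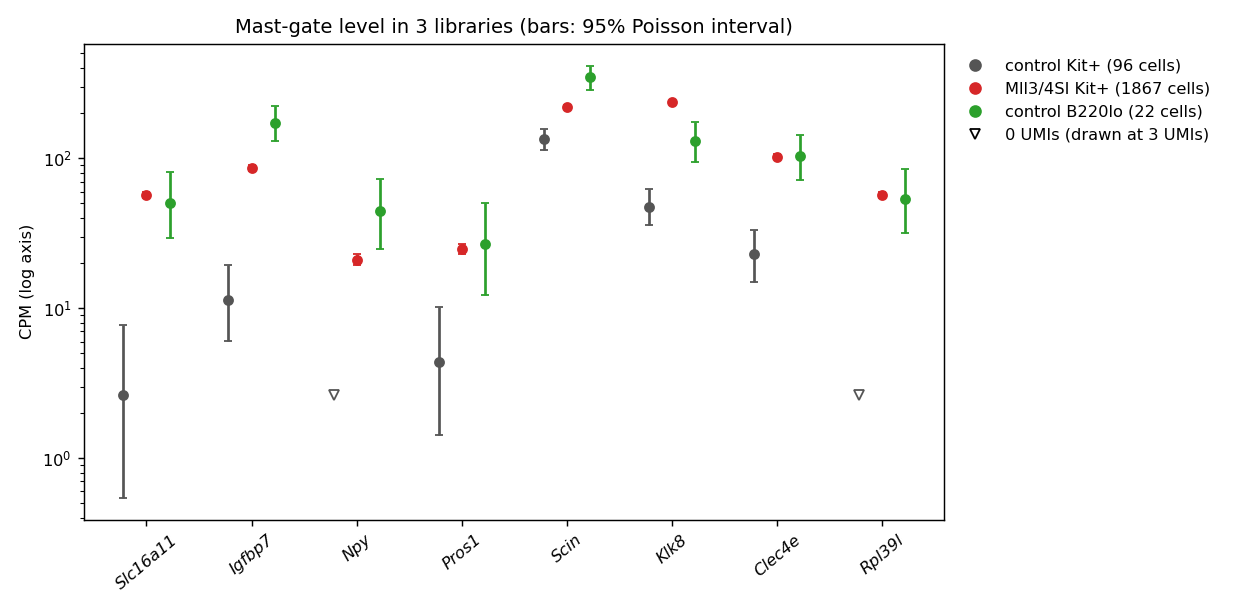
Mast-gate level of the 8 genes in CPM (log axis) in the control Kit+ (96 cells), SI (1867 cells) and control B220lo (22 cells) libraries, with 95% Poisson intervals and open triangles for 0 UMIs. For each gene the B220lo point lies above the control Kit+ point or triangle. How many of all genes do so was not computed.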

How the data were processed

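Raw UMI counts per gene and cell, as deposited, came from 10x Genomics 5′ version 2 libraries, processed by the authors with Cell Ranger 7.1.0 on mm10, per the submitters' processing notes. Cells were kept with at least 1000 UMIs, 500 genes and at most 10% mitochondrial UMIs. Barcodes with a Scrublet score above 0.25 were removed (scanpy 1.11.5). This fixed score was used because Scrublet's own threshold marked 0, 1 and 0 barcodes in the deleted, SI and B220lo libraries. UMIs were summed per gate and library and divided by the summed total (CPM). Intervals are Poisson for levels, conditional exact for ratios and Clopper-Pearson for shares. A 0 was compared as 3 counts over the group. Log2 ratios add 1 CPM, and a gene counts as higher or lower at 2-fold among genes with a mean of at least 5 CPM. Shares use cells thinned to 3000 UMIs. The code for log2 ratios and their intervals was tested on simulated counts with known folds. The genes, gates and lists were chosen with earlier results of these data known. Named relatives and the 3 most alike genes per member followed a stated rule. Gene positions are from GENCODE M21.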

Additional observations from a re-analysis of the deposited data

Results flagged for a closer look

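In the control B220lo library, which the Kit+ comparisons do not use, all 8 genes were above their control Kit+ level in the mast gate, with intervals of the ratio above 1. The share of all genes above their control Kit+ level there was not computed, so nothing is read from that count. The levels in its 22 mast-gate cells were 50.3 CPM of Slc16a11 (2.64 CPM in control Kit+), 172 CPM of Igfbp7 (11.4 CPM), 44.4 CPM of Npy (0 UMIs), 26.6 CPM of Pros1 (4.39 CPM), 346 CPM of Scin (134 CPM), 130 CPM of Klk8 (47.5 CPM), 104 CPM of Clec4e (22.9 CPM) and 53.3 CPM of Rpl39l (0 UMIs). Rpl39l also stood at 27.9 CPM in 102 Elane-gate cells and 25.4 CPM in 58 Hlf-gate cells of that library, and at 0.687 CPM in its 10839 cells with at least 3 Cd79a UMIs. Tpm3-rs7, a gene singled out after its values were seen, stood at 5.92 CPM in its mast gate (2 UMIs) and at 42.6 CPM in its Cd79a cells, beside 45.7 CPM in control Kit+ and 2.01 CPM in SI mast-gate cells. No cause of this, carry-over between libraries included, was tested.

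Slc16a11 differed in direction between gates of the deleted library, with a log2 ratio to control of 0.68 in the Hlf gate and -0.64 in the Elane gate. The Elane value rests on 1 UMI in the deleted library. The difference between the gates was not tested.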

How the results depend on the processing

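No paired analysis was possible because there was 1 library per group and the labels give no replicate numbers, so no replicate could be left out. The summed mast-gate level was 185 CPM in control and 750 CPM in SI with all deposited barcodes and also with doublets kept. It was 298 and 1070.5 CPM without ribosomal protein and mitochondrial genes in the total, 283 and 860 CPM as the mean over cells, and 424 and 830 CPM with gates set on 3000 UMIs a cell. In the deleted library it was 0 in the 1 cell with at least 5 UMIs of both gate genes. The summed log2 ratio of SI over control moved from 1.85 to 1.60 as the mean over cells and to 0.97 with gates on 3000 UMIs, where control had 19 cells, and ranged from 1.75 to 2.02 elsewhere. Scin in the mast gate was then reversed (-0.29), and Scin in the deleted Hlf gate was reversed as the mean over cells (0.27). The cause was not tested. The count of 7 of 8 genes at least 2-fold higher in the mast gate (3.14% of all genes were) was the same under every alternative run for it. The genes were chosen on this contrast and 4 passed the filter only through their SI level, so nothing is read from that. With gates on 3000 UMIs the log2 ratios of Igfbp7, Slc16a11 and Rpl39l moved, to 1.29, 5.46 and 5.94. Slc16a11 and Rpl39l then stood at 0 in control.

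The control share in the mast gate was 1.45% with at least 2 UMIs of both gate genes, 0.452% with at least 5, 0.561% without cells of the other gates and 0.178% with gates on 3000 UMIs. The SI share was 19.4%, 12.3%, 10.8% and 7.09% in that order, and 17.0% with doublets kept. The deleted share was 0% with gates on 3000 UMIs. Cells with a UMI of any of the genes were 47.9% of control and 87.3% of SI mast-gate cells at 3000 UMIs, 35.4% and 76.3% at 2000, and 78.1% and 99.3% without thinning. Genes at least 2-fold higher in SI numbered 316, and 112 with a mean of at least 20 CPM and 882 with no filter. Genes at least 2-fold lower numbered 440, 192 and 895. The number of cells limits the mast-gate values, since 5 of the 8 genes had fewer than 20 UMIs in the 96 control cells and the 3 deleted cells held 4 UMIs of all 8 genes.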
